A study of Sus scrofa with 9 samples.

Results

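The hearts of wild-type miniature pigs (Sus scrofa) that received doxorubicin were compared with the hearts of wild-type miniature pigs that received vehicle, by messenger RNA sequencing of 3 libraries a group. These 6 of the 9 libraries of the series were chosen by their treatment label, and all genes entered the comparison. The other 3 libraries came from pigs given doxorubicin together with formononetin and entered only 1 alternative fit. The series concerns whether activating the ERR-alpha transcriptional pathway eases the cardiac toxicity of anthracyclines. Both groups share genotype and tissue and differ in the labels by treatment alone. Dose, treatment time, heart region, age and sex do not appear in the sources used here. It is also not stated whether each library comes from its own pig, so a p-value here describes the spread among libraries, part or all of which may be technical.

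Doxorubicin is an anthracycline used against many cancers. It intercalates in DNA, traps topoisomerase II on cut DNA (the alpha enzyme, TOP2A, in dividing cells and the beta enzyme, TOP2B, in heart muscle cells), and is reduced by cellular enzymes in cycles that release reactive oxygen species. In the heart it is known for DNA damage signalling, for injury of mitochondria and for a cardiomyopathy that limits its cumulative use.

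The deposited table gave read counts per gene, with 16291952 to 17344459 counts and 18107 to 19304 detected genes per library. The labelled tissue fitted its markers: the ventricular myosin heavy chain MYH7 stood at 24929, 26057 and 28241 CPM with doxorubicin, against 38269, 33431 and 33870.0 CPM with vehicle (CPM, counts scaled to a common library size with edgeR's TMM factors, here and below). The first principal component of log2 CPM held 68.3% of the variance and separated the groups. Libraries of the same group differed by a root mean square of 0.423 to 0.549 log2 units over genes, and libraries of different groups by 0.792 to 0.977. Mitochondrially encoded genes took 23.7% ± 0.604 of counts with doxorubicin and 21.1% ± 0.296 with vehicle (SD, n = 3 each), a difference of 2.63 percentage points (exact permutation test, two-sided p = 0.1, the smallest that 3 against 3 libraries can give).

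Some libraries stood apart within their group. Doxorubicin replicate 1 and vehicle replicate 2 were the highest of their groups for a pair of atrial genes chosen after their values were seen. MYL4, the atrial essential light chain, stood at 10.9, 1.33 and 0.314 CPM with doxorubicin, against 6.66, 40.2 and 7.93 CPM with vehicle, and SLN (sarcolipin, the atrial inhibitor of the calcium pump) at 15.1, 1.09 and 1.13 CPM with doxorubicin, against 1.41, 11.1 and 1.02 CPM with vehicle. The same libraries were highest for NPPA (below) and for the summed level of the atrial marker list. That sum was 2443, 2301 and 2209 CPM with doxorubicin, against 2024, 2661 and 2039 CPM with vehicle. The atrial light chain MYL7 (below) did not share the pattern among the doxorubicin libraries, where replicate 1 was lowest. Doxorubicin replicate 1 also held more fibroblast marker RNA than the other doxorubicin libraries, and vehicle replicate 1 less than the other vehicle libraries (summed levels below). Doxorubicin replicate 3 lacked a shift against genes of short genomic span that the other 2 doxorubicin libraries shared (described at the end).

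Of 14471 genes tested, 3349 rose (23.1% of genes tested) and 3251 fell (22.5%) with doxorubicin at an adjusted p under 0.05 in edgeR's quasi-likelihood test with Benjamini-Hochberg adjustment, which gives all adjusted p-values below. The median log2 fold change of all genes tested was 0.01. Counts of list members below are to be read against these shares of 23.1% and 22.5%. Changes were mostly modest: 839 genes rose at least 2-fold (5.8% of genes tested) and 987 fell at least 2-fold (6.82%), and the median log2 fold change was 0.65 among genes that rose and -0.73 among those that fell. At least 8-fold changes were seen for 85 genes that rose and 58 that fell. The 3 levels of one group lay wholly above or below those of the other for 8105 genes (56.0%). Since the tissue was bulk heart, a lower level can come from fewer cells of a type or from less RNA per cell, and these cannot be told apart.

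**Figure D1:**
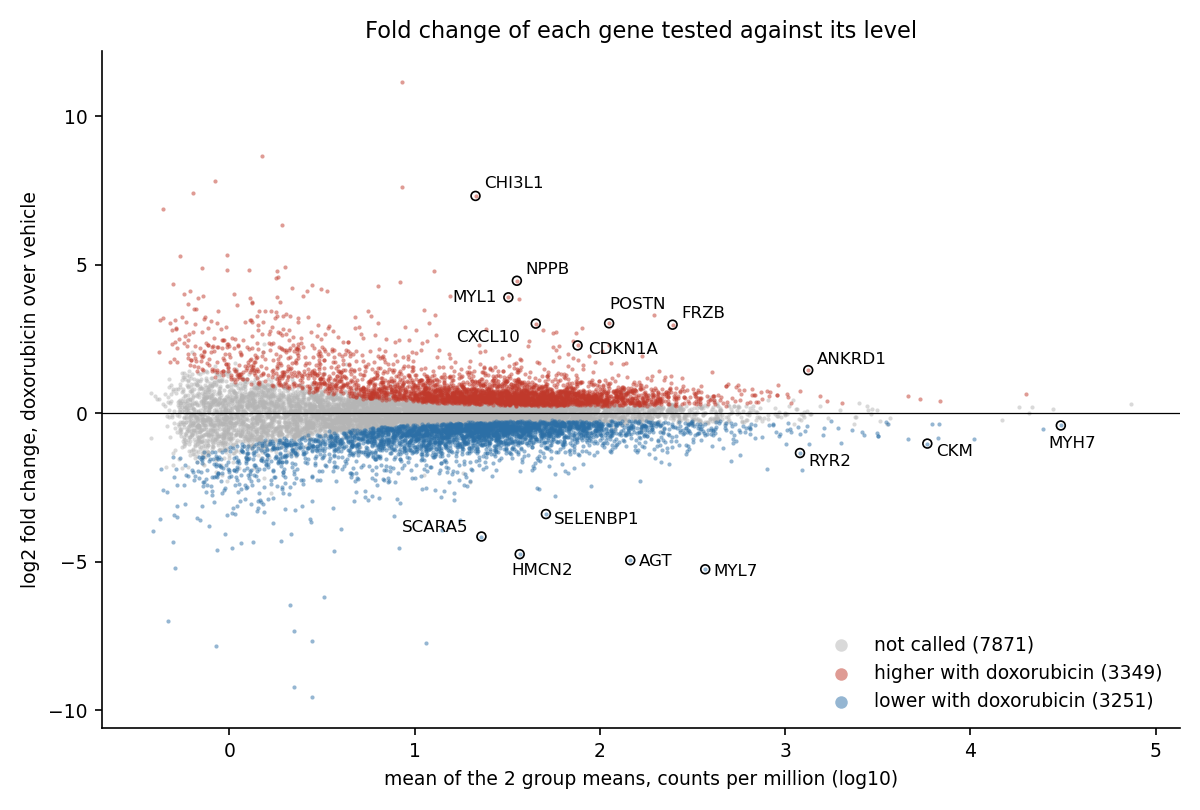
Log2 fold change of doxorubicin over vehicle (vertical axis) against the mean level in CPM on a log10 scale (horizontal axis) for the 14471 genes tested. The 3349 rises are red points and the 3251 falls blue points. MYL7 and AGT stand out among the falls for their high level, and CHI3L1 and NPPB among the rises.

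Among well-expressed genes, the 12 rises of largest fold included CHI3L1, NPPB, MYL1 and 3 class I-related loci. CHI3L1, a secreted chitinase-like glycoprotein, stood at 4.44, 28.1 and 94.6 CPM with doxorubicin, against 0.183, 0.305 and 0.283 CPM with vehicle (log2 fold change 7.31 ± 1.22, adjusted p = 0.0011). Levels with ± are means with SD over the 3 libraries of a group, and fold changes with ±, also where given alone in parentheses, are log2 fold changes with SE. Its doxorubicin libraries spread over a wide range but all lay above the vehicle libraries, and the call was lost with limma-voom (adjusted p = 0.16). NPPB, which encodes B-type natriuretic peptide and rises in strained ventricles, stood at 70.3, 66.3 and 68.1 CPM with doxorubicin, against 0.733, 1.53 and 6.86 CPM with vehicle (log2 fold change 4.46 ± 0.49, adjusted p = 0.00013), nearly the same in all doxorubicin libraries. MYL1, the fast skeletal essential light chain, stood at 37, 77.9 and 65.4 CPM with doxorubicin, against 4.52, 0.855 and 6.57 CPM with vehicle (log2 fold change 3.90 ± 0.47).

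LOC100513601, described in the table as class I-like, stood at 329.8, 298 and 438 CPM with doxorubicin, against 37.6, 26.2 and 43.5 CPM with vehicle (log2 fold change 3.31 ± 0.21). LOC100511275, an MHC class I-related gene protein at chr9:122592510-122611462 (Sscrofa11.1), stood at 65.8, 71.2 and 69.1 CPM with doxorubicin, against 4.46, 3.85 and 5.89 CPM with vehicle (log2 fold change 3.85 ± 0.15, adjusted p = 1.1e-06). LOC100515902, annotated as class I histocompatibility antigen A-11-like, averaged 24.4 ± 2.63 CPM with doxorubicin, against 0.872 ± 0.307 CPM with vehicle. Reads can be shared among class I genes, so the split between these loci is uncertain, and the groups did not overlap at any of the 3.

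The remaining large rises were ESM1 (an endothelial proteoglycan, log2 fold change 3.96 ± 0.36), the phosphatase gene DUSP13 (3.48 ± 0.28), PLAC8 (3.30 ± 0.20), POSTN (periostin, made by activated fibroblasts, 3.03 ± 0.23), TNFRSF11B (osteoprotegerin, a decoy receptor, 3.02 ± 0.26) and the interferon-induced chemokine gene CXCL10 (3.02 ± 0.26). ESM1 and CHI3L1 were both highest in doxorubicin replicate 3 and lowest in replicate 1.

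Among the falls, MYL7 stood out for its level. It encodes the regulatory light chain of atrial myosin and stood at 13.9, 27.4 and 15.4 CPM with doxorubicin, against 745, 757 and 664 CPM with vehicle (log2 fold change -5.26 ± 0.25, adjusted p = 2.7e-06). Its 3 vehicle libraries were close to each other, and all doxorubicin libraries lay far below them, doxorubicin replicate 1 lowest. AGT, angiotensinogen, the precursor of angiotensin, stood at 19.4, 3.21 and 4.46 CPM with doxorubicin, against 149, 396 and 303 CPM with vehicle (log2 fold change -4.95 ± 0.61). HMCN2, a large extracellular matrix protein, stood at 6.07, 0.907 and 0.754 CPM with doxorubicin, against 64, 79.6 and 70.1 CPM with vehicle (log2 fold change -4.75 ± 0.50).

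In SCARA5, a ferritin receptor found on fibroblasts, the level was 6.24, 0.423 and 0.44 CPM with doxorubicin, against 25.5, 59.4 and 45.6 CPM with vehicle. The log2 fold change was -4.15 ± 0.67, and -6.64 without doxorubicin replicate 1. SLC6A4 (the serotonin transporter, log2 fold change -3.92 ± 0.41), ADAM22 (-3.61 ± 0.26), SELENBP1 (a selenium-binding protein, -3.40 ± 0.29), FAM155B (-2.93 ± 0.17), NOX5 (a calcium-activated NADPH oxidase, -2.81 ± 0.38) and SHMT1 (cytosolic serine hydroxymethyltransferase, -2.69 ± 0.20) fell without overlap. An uncharacterised long noncoding RNA on chromosome 8, LOC106504698, had 5 counts in the 3 doxorubicin libraries together and 1144 in the 3 vehicle libraries, a ratio of 228 (vehicle over doxorubicin; 95% exact interval 97.5 to 704, counting error only).

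NPPA, the atrial natriuretic peptide gene, fell as NPPB rose. Its level was 36.8, 3.57 and 2.51 CPM with doxorubicin, against 40.9, 218 and 43.4 CPM with vehicle (log2 fold change -2.80 ± 0.92, adjusted p = 0.031). The groups lay close, with doxorubicin replicate 1 just below the lowest vehicle library. The call rested on single libraries: the adjusted p was 0.16 without vehicle replicate 2 and 0.091 and 0.087 without doxorubicin replicates 2 and 3, and the log2 fold change was -5.05 without doxorubicin replicate 1. It was also lost with DESeq2 (adjusted p = 0.067) and in the fit to 9 libraries (0.078).

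Contractile and energy genes were among the largest losses by amount of RNA. CKM, the muscle creatine kinase, stood at 3391, 3802 and 4396 CPM with doxorubicin, against 8715, 7587 and 7258 CPM with vehicle (log2 fold change -1.02 ± 0.12, adjusted p = 0.00023). The ventricular essential light chain MYL3 averaged 3264 ± 523 CPM with doxorubicin, against 6007 ± 579 CPM with vehicle. Its regulatory partner MYL2 averaged 4817 ± 902 CPM with doxorubicin, against 8506 ± 1199 CPM with vehicle, and skeletal alpha-actin, ACTA1, averaged 7421 ± 309.5 CPM with doxorubicin, against 13634 ± 2403 CPM with vehicle. MYBPC3 (cardiac myosin-binding protein C, log2 fold change -0.77 ± 0.11), MYH7 (-0.41 ± 0.11), GAPDH (-0.37 ± 0.12) and the mitochondrially encoded COX3 (-0.53 ± 0.10) completed the 8 largest losses. The call of MYH7 was lost without doxorubicin replicate 2 (adjusted p = 0.050), and that of GAPDH without vehicle replicates 1 or 2 or doxorubicin replicates 1 or 2 (0.078 to 0.10). GAPDH also lost its call with a replicate block (adjusted p = 0.059) and with an offset for genomic span (0.11).

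The largest gains were of the mitochondrially encoded COX2, ND2 and ND6, the intermediate filament gene DES, ANKRD1, the chaperone gene HSPB7, PAM and HADHB. COX2 stood at 23996, 22174 and 26717 CPM with doxorubicin, against 16376, 15326 and 15195 CPM with vehicle (log2 fold change 0.64 ± 0.11). ANKRD1, a stretch-responsive protein of the sarcomere and nucleus, stood at 1663, 1971 and 2220.3 CPM with doxorubicin, against 966, 385 and 793 CPM with vehicle (log2 fold change 1.45 ± 0.27). HADHB, a subunit of the mitochondrial trifunctional protein of fatty acid oxidation, stood at 1108, 1204 and 1315 CPM with doxorubicin, against 663, 606 and 593 CPM with vehicle (log2 fold change 0.96 ± 0.10). COX2 and COX3, subunits of the same complex and encoded by the same mitochondrial strand, moved in opposite directions.

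**Figure D2:**
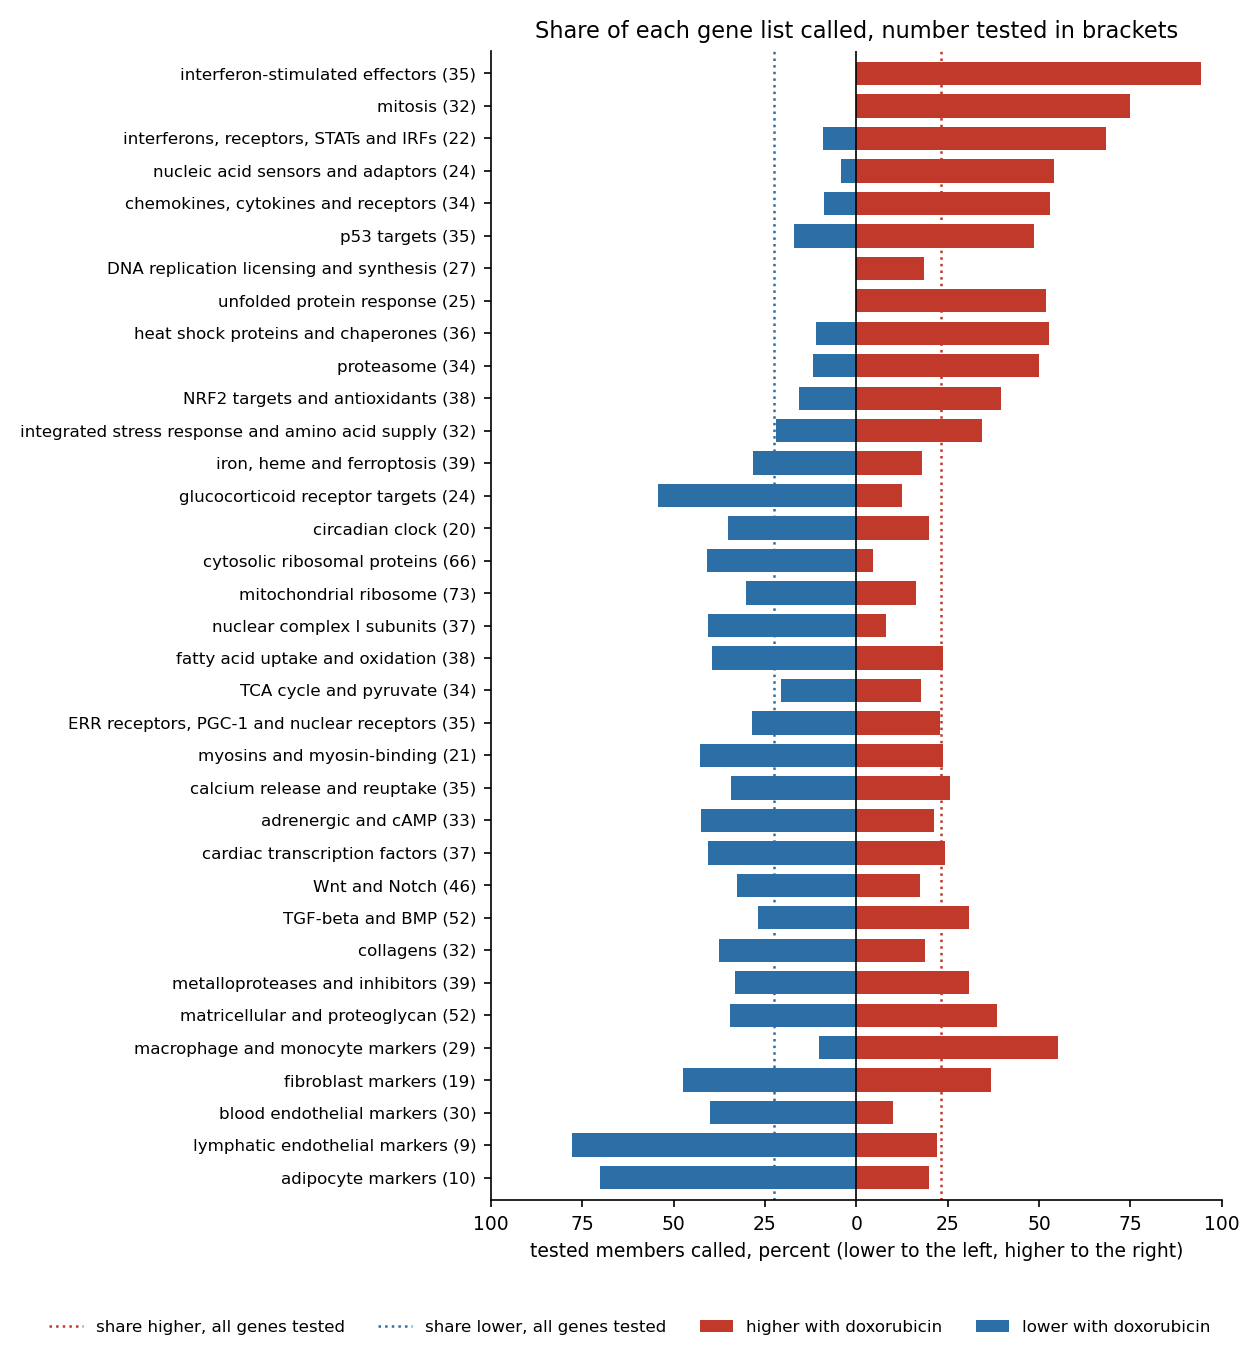
Share of the tested members of 35 gene lists that rose (red, to the right) or fell (blue, to the left), in percent. Dotted lines give the shares over all genes tested, 23.1% and 22.5%. Interferon and mitosis lists lie far to the right of the line, and lymphatic and adipocyte markers far to the left.

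Of the drug's targets, TOP2B did not pass the test and TOP2A rose. Of the topoisomerase and adduct repair genes, 8 of 24 tested members rose and 3 fell (median log2 fold change 0.18). TOP2B stood at 153, 144 and 158 CPM with doxorubicin, against 141, 149 and 148 CPM with vehicle (log2 fold change 0.06 ± 0.09, adjusted p = 0.62), with overlapping groups. TOP2A averaged 12.3 ± 4.42 CPM with doxorubicin, against 3.66 ± 1.1 CPM with vehicle (log2 fold change 1.75 ± 0.29), and TOP3A, a type I enzyme, 20.3 ± 0.967 CPM with doxorubicin, against 41.1 ± 0.888 CPM with vehicle (-1.01 ± 0.09), while NBN, a sensor of double-strand breaks in the MRN complex, averaged 41 ± 4.7 CPM with doxorubicin, against 21.5 ± 0.697 CPM with vehicle.

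In the list of doxorubicin transport and reduction, 4 of 21 tested members rose and 6 fell (median log2 fold change -0.07). SLC22A3, an organic cation transporter, averaged 23.7 ± 0.572 CPM with doxorubicin, against 8.79 ± 2.18 CPM with vehicle (log2 fold change 1.43 ± 0.17). ABCB1, the multidrug efflux pump, averaged 46.7 ± 5.93 CPM with doxorubicin, against 26 ± 3.93 CPM with vehicle (log2 fold change 0.84 ± 0.14). RARG, a retinoic acid receptor whose human variants are tied to anthracycline cardiotoxicity, fell (log2 fold change -1.23 ± 0.15, adjusted p = 0.0002).

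Of the p53 target genes, 17 of 35 tested members rose and 6 fell (median log2 fold change 0.43). CDKN1A, the p21 cell cycle inhibitor, stood at 106, 140.1 and 131 CPM with doxorubicin, against 15.4, 21.1 and 40.9 CPM with vehicle (log2 fold change 2.28 ± 0.29, adjusted p = 0.00029). ZMAT3, an RNA-binding p53 target, averaged 91.6 ± 8.72 CPM with doxorubicin, against 19.7 ± 2.92 CPM with vehicle, and MDM2, the ligase that degrades p53, 52.4 ± 1.79 CPM with doxorubicin, against 25.4 ± 0.262 CPM with vehicle. GDF15, a stress-induced cytokine, stayed rare, with 95 counts in the doxorubicin libraries and 2 in the vehicle libraries, a ratio of 47.6 (95% exact interval 12.8 to 399).

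Mitosis genes rose at low levels. In mitosis, 24 of 32 tested members rose (median log2 fold change 1.61), and their summed level was 173, 135 and 124 CPM with doxorubicin, against 58.2, 47.3 and 73.3 CPM with vehicle. TTK, a spindle checkpoint kinase, averaged 3.51 ± 0.438 CPM with doxorubicin, against 0.256 ± 0.117 CPM with vehicle, and ANLN (anillin, needed for cytokinesis) 14.6 ± 1.63 CPM with doxorubicin, against 5 ± 1.13 CPM with vehicle. Of the replication genes, 5 of 27 rose (18.5%, against 23.1% over all genes tested), and 3 without vehicle replicate 1, vehicle replicate 3 or doxorubicin replicate 1. They included the nucleotide synthesis genes TYMS (log2 fold change 2.65 ± 0.26) and RRM2 (2.90 ± 0.35), and the median of the list was 0.17. Macrophage markers also rose in the same libraries, and their part in the mitosis and replication genes was not tested.

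Interferon-stimulated genes rose nearly as a block. Among interferon-stimulated effectors, 33 of 35 tested members rose (median log2 fold change 1.37), and their summed level was 1819, 1760 and 2312 CPM with doxorubicin, against 846, 649.6 and 850.0 CPM with vehicle. Doxorubicin replicate 3 was the highest, and every doxorubicin library lay above every vehicle library. IFIT3, an antiviral effector, stood at 60.4, 58.7 and 90.8 CPM with doxorubicin, against 11.5, 11.6 and 15.8 CPM with vehicle (log2 fold change 2.43 ± 0.19, adjusted p = 3.9e-05).

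Nucleic acid sensors and adaptors gave 13 rises and 1 fall among 24 tested members (median log2 fold change 0.60). DDX58, which encodes the RNA sensor RIG-I, averaged 128 ± 14 CPM with doxorubicin, against 19.9 ± 2.83 CPM with vehicle (log2 fold change 2.69 ± 0.13), and EIF2AK2, the RNA-activated kinase PKR, 139 ± 7.52 CPM with doxorubicin, against 36.7 ± 2.98 CPM with vehicle (1.92 ± 0.10). The 1 member that fell was MAVS, the mitochondrial adaptor on which RIG-I signals, at 154, 167 and 135 CPM with doxorubicin, against 293, 300.2 and 259 CPM with vehicle (log2 fold change -0.90 ± 0.11); 2 fell without vehicle replicate 2 or doxorubicin replicate 3. Of the interferons, their receptors, STATs and IRFs, 15 of 22 tested members rose and 2 fell (median log2 fold change 0.51), and 9 rose in the fit to 9 libraries. The interferon gene IFNB1 had no count in any doxorubicin or vehicle library. USP18, which restrains interferon receptor signalling, rose (2.11 ± 0.17). The members that fell were the kinases TYK2 (-0.49 ± 0.09) and JAK1 (-0.28 ± 0.09); the call of JAK1 was lost without any 1 vehicle library or doxorubicin replicates 2 or 3 (adjusted p = 0.054 to 0.097).

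In antigen processing, 13 of 28 tested members rose and 1 fell (median log2 fold change 0.38). B2M, the class I light chain, has 2 entries in the table, and the better-measured one averaged 257 ± 44.3 CPM with doxorubicin, against 118 ± 20.5 CPM with vehicle (log2 fold change 1.12 ± 0.16). SLA-2, a classical class I heavy chain, was the member that fell, at 298, 273 and 394 CPM with doxorubicin, against 588, 439 and 513 CPM with vehicle (log2 fold change -0.67 ± 0.15), opposite to the class I-like loci above. Without vehicle replicate 2 or doxorubicin replicate 3, 2 members fell. Reads shared between class I genes leave both directions uncertain. ERAP1, which trims peptides for class I, rose (0.75 ± 0.10), as did TAP1, a chain of the peptide transporter (0.93 ± 0.13).

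Chemokine and cytokine genes gave more rises than falls. Of these, 18 of 34 tested members rose and 3 fell (median log2 fold change 0.55). CXCL10 stood at 81.2, 65 and 94.5 CPM with doxorubicin, against 14.4, 6.17 and 9.24 CPM with vehicle, without overlap. CCL26, an eosinophil attractant, had no count in the 3 doxorubicin libraries and 224 in the vehicle libraries, at least 24.8-fold lower with a floor of 3 counts per library.

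Of the NF-kappa-B genes, 4 of 21 tested members rose and 5 fell (median log2 fold change 0.03), shares near those over all genes tested; 2 rose without vehicle replicate 1, vehicle replicate 2 or doxorubicin replicate 1. NFKBIA, the inhibitor that NF-kappa-B itself induces, averaged 23.8 ± 3.64 CPM with doxorubicin, against 42.6 ± 3.91 CPM with vehicle, and RELA, the p65 subunit, 23.6 ± 3.16 CPM with doxorubicin, against 41.2 ± 0.741 CPM with vehicle. Both fell (log2 fold change -0.84 ± 0.13 and -0.80 ± 0.11), whereas BIRC3, an inhibitor of apoptosis, rose (0.95 ± 0.11). In complement, 8 of 23 tested members rose and 6 fell (median log2 fold change 0.39): receptors such as C3AR1 rose (1.56 ± 0.23), and CLU, an inhibitor of the terminal complex, averaged 252 ± 49.9 CPM with doxorubicin, against 771 ± 25 CPM with vehicle (log2 fold change -1.61 ± 0.14).

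Of the genes of apoptosis, necroptosis and pyroptosis, 13 of 34 tested members rose and 4 fell (median log2 fold change 0.32). CASP1, the inflammasome caspase, averaged 11.2 ± 1.26 CPM with doxorubicin, against 1.37 ± 0.13 CPM with vehicle (log2 fold change 3.03 ± 0.20). DFNA5, gasdermin E, averaged 88.6 ± 6.04 CPM with doxorubicin, against 35.3 ± 0.907 CPM with vehicle (1.33 ± 0.09), and XIAP, which blocks caspases, rose as well (0.84 ± 0.10). BMF, a BH3-only gene, fell (-1.28 ± 0.19).

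Stress pathways gave a mixed picture. In the unfolded protein response, 13 of 25 tested members rose; 8 rose without vehicle replicate 1, vehicle replicate 2 or doxorubicin replicate 2, and the median log2 fold change was 0.28. DNAJB9, a co-chaperone induced by IRE1 and XBP1, stood at 97.6, 90.6 and 82 CPM with doxorubicin, against 38.3, 39.3 and 41.4 CPM with vehicle (log2 fold change 1.18 ± 0.10, adjusted p = 4.6e-05). HSPA5, the chaperone BiP, averaged 407 ± 6.23 CPM with doxorubicin, against 232 ± 7 CPM with vehicle (0.81 ± 0.09).

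The integrated stress response did not move one way: 11 of 32 tested members rose and 7 fell (median log2 fold change 0.18), with 7 rising in the fit to 9 libraries. ATF3 stood at 10.9, 13.8 and 12.2 CPM with doxorubicin, against 5.87, 3.6 and 6.29 CPM with vehicle (log2 fold change 1.22 ± 0.21). NUPR1, a stress-induced chromatin protein, stood at 0.731, 1.15 and 1.32 CPM with doxorubicin, against 6.42, 9.4 and 9.24 CPM with vehicle (-2.97 ± 0.28), and CEBPB, a partner of ATF4, averaged 19 ± 1.87 CPM with doxorubicin, against 43 ± 3.52 CPM with vehicle (-1.18 ± 0.11). For each of these 3 genes the groups did not overlap.

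Among heat shock proteins and chaperones, 19 of 36 tested members rose and 4 fell (median log2 fold change 0.38). HSPH1 (log2 fold change 0.93 ± 0.10), DNAJB4 (0.80 ± 0.09) and HSPA4 (0.64 ± 0.09) rose without overlap, and DNAJB6, a suppressor of protein aggregation, fell (-0.65 ± 0.10). In the proteasome, 17 of 34 tested members rose and 4 fell (median log2 fold change 0.31); 11 rose without vehicle replicate 2, 10 without vehicle replicate 3, and 7 fell without doxorubicin replicate 3. PSMD12 averaged 95 ± 7.27 CPM with doxorubicin, against 46.6 ± 4.68 CPM with vehicle, and PSMA1 107 ± 14.6 CPM with doxorubicin, against 52 ± 2.85 CPM with vehicle.

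For NRF2 targets and antioxidants, 15 of 38 tested members rose and 6 fell (median log2 fold change 0.24). GCLM, the regulatory subunit of glutathione synthesis, stood at 48.7, 62.4 and 46.3 CPM with doxorubicin, against 21, 18 and 17.2 CPM with vehicle (log2 fold change 1.49 ± 0.14, adjusted p = 6.9e-05). TXN, thioredoxin, averaged 51.9 ± 10.1 CPM with doxorubicin, against 20.1 ± 1.5 CPM with vehicle. SOD2, the superoxide dismutase of mitochondria, went the other way at 244, 277 and 212 CPM with doxorubicin, against 447, 424 and 354 CPM with vehicle (log2 fold change -0.74 ± 0.13).

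Of iron, heme and ferroptosis genes, 7 of 39 rose and 11 fell (median -0.02). NCOA4, the receptor that delivers ferritin to the lysosome, averaged 236 ± 8.24 CPM with doxorubicin, against 145 ± 10.3 CPM with vehicle (log2 fold change 0.71 ± 0.09), and CP, the ferroxidase ceruloplasmin, 4.69 ± 2.46 CPM with doxorubicin, against 0.291 ± 0.241 CPM with vehicle. Neither gene had overlapping groups.

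In autophagy and muscle atrophy, 9 of 35 tested members rose and 10 fell (median log2 fold change -0.10), with 5 rising without vehicle replicate 2 or 3. The autophagy receptor OPTN averaged 325 ± 5.21 CPM with doxorubicin, against 161 ± 16.2 CPM with vehicle (1.02 ± 0.10), and the transcription factors FOXO4 and TFEB, which drive atrophy and lysosome genes, fell (-1.17 ± 0.11 and -1.02 ± 0.14). Among lysosomal genes, 12 of 31 tested members rose and 4 fell (median log2 fold change 0.18); 6 rose without vehicle replicate 1 and 7 without doxorubicin replicate 1. Lysosomal falls numbered 2 without vehicle replicate 1 or doxorubicin replicate 2. CTSS, a macrophage cathepsin, rose (1.30 ± 0.14).

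Translation genes divided by kind. Of cytosolic ribosomal proteins, 3 of 66 tested members rose and 27 fell (median log2 fold change -0.28); without doxorubicin replicate 3, 47 fell. Their summed level was 22849, 21598 and 28229.9 CPM with doxorubicin, against 29771, 27464 and 30839 CPM with vehicle, so doxorubicin replicate 3 lay above the lowest vehicle library. RPL36 stood at 89.5, 105 and 114 CPM with doxorubicin, against 301, 283 and 294 CPM with vehicle (log2 fold change -1.51 ± 0.11). RPS27, RPS29 and RPS13 were the 3 that rose (0.77 ± 0.12, 0.72 ± 0.16 and 0.50 ± 0.14); without vehicle replicate 2 RPS13 was no longer called (adjusted p = 0.057).

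For initiation and elongation factors, 15 of 43 tested members rose and 9 fell (median log2 fold change 0.15): EIF4E, the cap-binding protein, averaged 78 ± 6.03 CPM with doxorubicin, against 39.3 ± 2.6 CPM with vehicle (0.99 ± 0.10), and EEF2, which moves the ribosome along, 1853 ± 22.9 CPM with doxorubicin, against 2757 ± 74 CPM with vehicle (-0.57 ± 0.09). In tRNA synthetases, 7 of 20 tested members rose and 2 fell (median log2 fold change 0.15), with 5 falling without doxorubicin replicate 3 and 1 without any other 1 library. Of splicing factors, 9 of 39 tested members rose and 13 fell (median log2 fold change -0.07), with 5 rising without vehicle replicate 1 or doxorubicin replicate 1. CLK1, a kinase of SR proteins, rose (1.15 ± 0.10), as did MBNL1 and MBNL2, whereas U2AF2, a recogniser of the 3′ splice site, fell (-0.71 ± 0.09).

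Among hormone and clock genes more members fell than rose. Of glucocorticoid receptor targets, 3 of 24 tested members rose and 13 fell (median log2 fold change -0.39). CDKN1C, the p57 cell cycle inhibitor, stood at 5.9, 4.23 and 5.71 CPM with doxorubicin, against 16.7, 19.1 and 17.2 CPM with vehicle (log2 fold change -1.74 ± 0.16, adjusted p = 7e-05), so it fell while its relative CDKN1A rose. ANGPTL4 fell as well (-1.48 ± 0.16), and FKBP5 (0.65 ± 0.12) and SGK1 (0.77 ± 0.15) rose.

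Among circadian clock genes, 4 of 20 tested members rose and 7 fell (median log2 fold change -0.29), with 2 rising without vehicle replicate 1. TEF, an output regulator, averaged 37.7 ± 2.15 CPM with doxorubicin, against 67.4 ± 4.7 CPM with vehicle (-0.84 ± 0.10), and RORA, an activator of the clock loop, 39.5 ± 3.22 CPM with doxorubicin, against 22.6 ± 0.184 CPM with vehicle (0.81 ± 0.10). The hour at which each heart was taken is not given in the sources used here. In immediate early genes, 8 of 30 tested members rose and 9 fell (median log2 fold change -0.05): JUNB rose (1.05 ± 0.14) and SRF, which drives many of the others and the sarcomere genes, averaged 45.9 ± 4.9 CPM with doxorubicin, against 95.8 ± 3.7 CPM with vehicle (-1.06 ± 0.10). In hypoxia and angiogenic factors, 6 of 30 tested members rose and 9 fell (median log2 fold change -0.00043); EGLN3, an oxygen-sensing hydroxylase, rose (0.95 ± 0.12) and NDRG1 fell (-1.16 ± 0.13).

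Heart muscle genes moved both ways, with the calcium release channel and several main contractile genes lower. Of myosins and myosin-binding proteins, 5 of 21 tested members rose and 9 fell (median log2 fold change -0.42). Per kilobase of deposited gene length, MYL7 fell to 26.9 CPM with doxorubicin, against 1026 CPM with vehicle, and MYL1 rose to 70.4 CPM with doxorubicin, against 4.66 CPM with vehicle (a pair chosen after its values were seen). MYH7B, a slow-type heavy chain, averaged 183 ± 29.9 CPM with doxorubicin, against 425 ± 17.4 CPM with vehicle (-1.22 ± 0.12).

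In the thin filament, 4 of 24 tested members rose and 7 fell (median log2 fold change 0.06), with TNNT2, cardiac troponin T, at 1746, 2071 and 2212 CPM with doxorubicin, against 3727, 2971 and 3294 CPM with vehicle (-0.73 ± 0.12) and TPM4, a nonmuscle tropomyosin, higher (0.85 ± 0.12); 2 members rose without vehicle replicate 2. Among titin, Z-disc and costamere genes, 12 of 36 tested members rose and 8 fell (median log2 fold change 0.05). XIRP2, which binds actin at the intercalated disc, averaged 342 ± 20.3 CPM with doxorubicin, against 144 ± 35.7 CPM with vehicle (1.24 ± 0.17), and ANKRD23, a titin-binding relative of ANKRD1, fell (-1.11 ± 0.15).

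Of calcium release and reuptake genes, 9 of 35 tested members rose and 12 fell (median log2 fold change -0.02). RYR2, the channel that releases calcium from the sarcoplasmic reticulum, stood at 686, 783 and 573 CPM with doxorubicin, against 2015, 1607 and 1554 CPM with vehicle (log2 fold change -1.34 ± 0.14, adjusted p = 0.00012). JPH2, which holds that channel near the cell membrane, averaged 141 ± 8.4 CPM with doxorubicin, against 319 ± 23.3 CPM with vehicle (-1.18 ± 0.10). CASQ2, the calcium buffer inside the store, moved the other way at 1232, 1271 and 1259 CPM with doxorubicin, against 788, 843 and 763 CPM with vehicle (0.65 ± 0.09).

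In potassium, sodium and pump channels, 7 of 34 tested members rose and 8 fell (median log2 fold change -0.13). These shares, 20.6% and 23.5%, were near those over all genes tested. KCNIP2, the subunit of the transient outward current, averaged 173 ± 22.8 CPM with doxorubicin, against 415 ± 66.7 CPM with vehicle (-1.26 ± 0.14), and ATP1B1, a sodium pump subunit, 329.7 ± 12.8 CPM with doxorubicin, against 185 ± 1.82 CPM with vehicle (0.83 ± 0.09). Among junction genes, 7 of 23 tested members rose and 7 fell (median log2 fold change 0.02), with 4 rising without doxorubicin replicate 2. GJA1 (connexin 43) rose (0.79 ± 0.09), DSP (desmoplakin) fell (-0.58 ± 0.09), and PPL, periplakin, averaged 0.664 ± 0.322 CPM with doxorubicin, against 15.9 ± 6.04 CPM with vehicle (-4.54 ± 0.38).

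**Figure D3:**
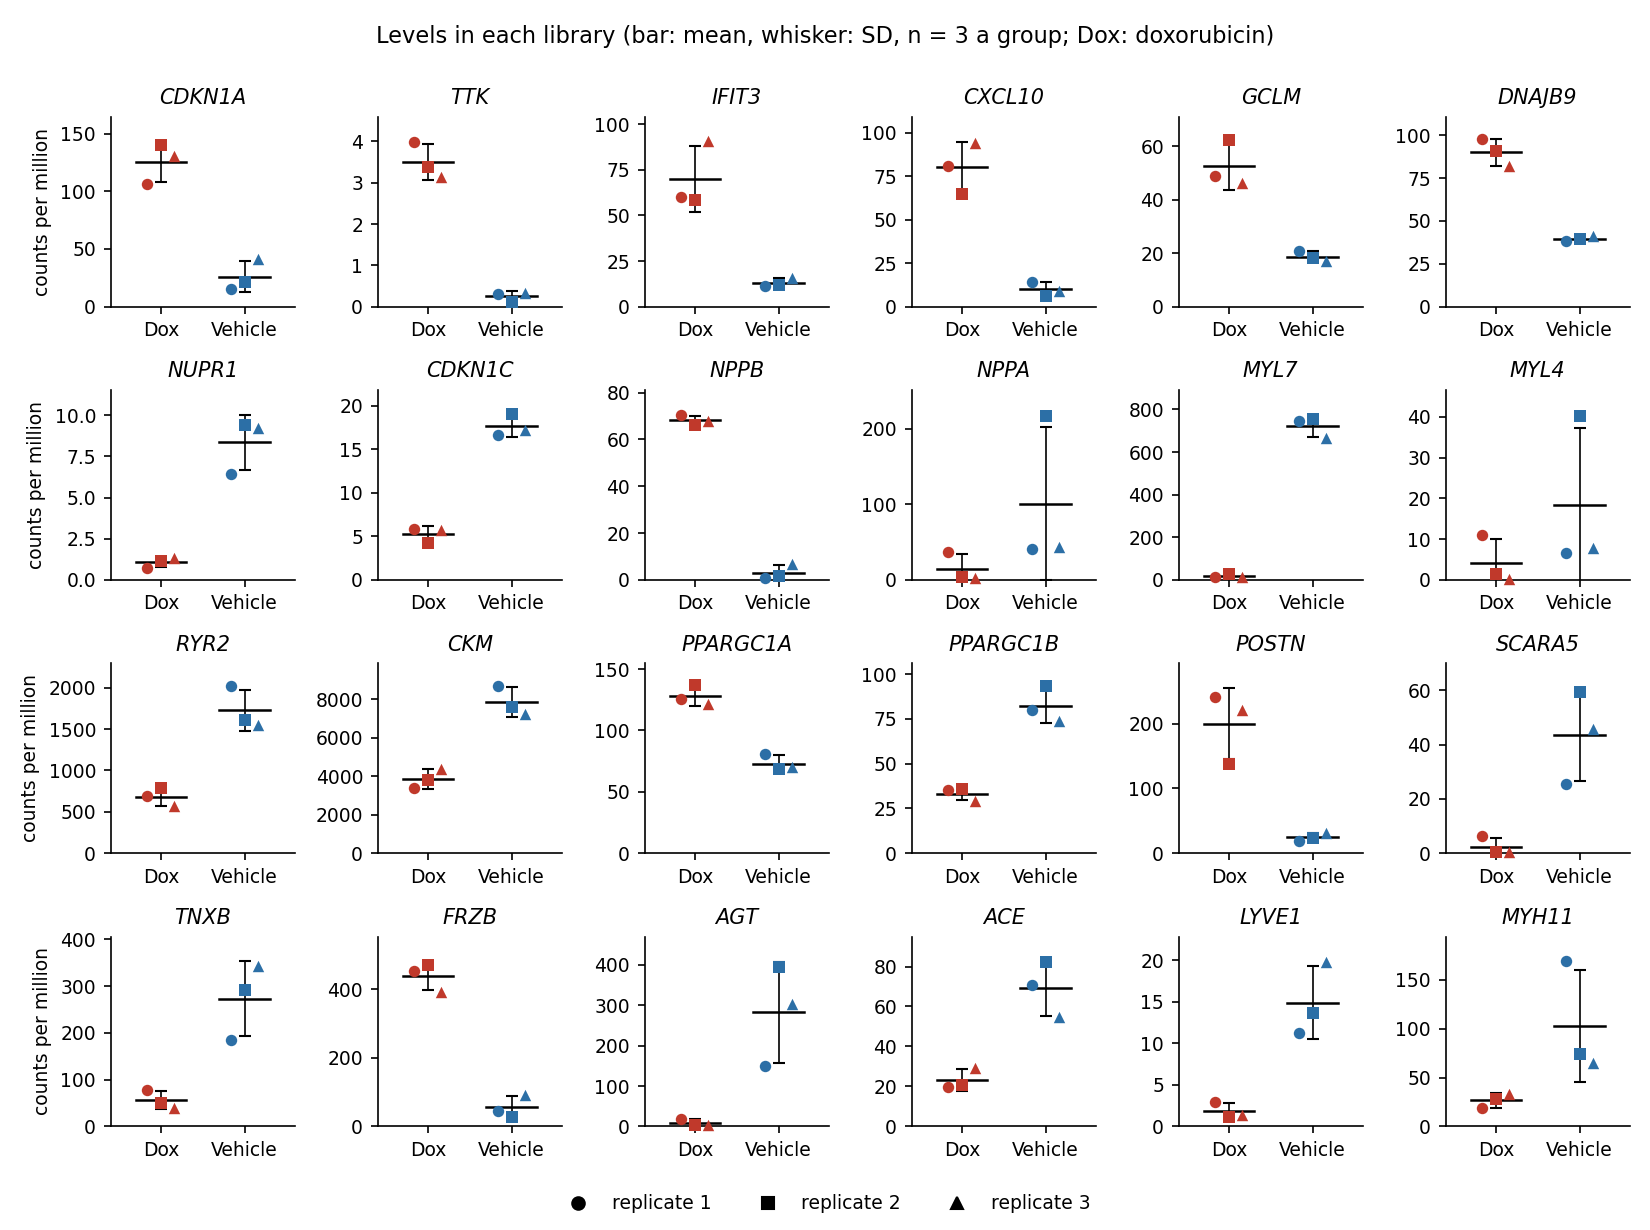
Level of 24 genes in CPM (vertical axes, linear, starting at 0) in each doxorubicin library (red, left) and vehicle library (blue, right). Symbols give the replicate, bars the mean and whiskers the SD (n = 3 a group; whiskers that would pass below 0 stop at the axis). NPPA and MYL4 are far highest in vehicle replicate 2, while all vehicle libraries lie far above the doxorubicin libraries for MYL7.

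Among cardiac transcription factors, 9 of 37 tested members rose and 15 fell (median log2 fold change -0.13), with 9 falling without vehicle replicate 2. TBX20 averaged 245 ± 31 CPM with doxorubicin, against 143 ± 6.26 CPM with vehicle (0.78 ± 0.11), and its relative TBX2, a repressor, 10.9 ± 1.01 CPM with doxorubicin, against 27.7 ± 2.73 CPM with vehicle (-1.34 ± 0.13). Of natriuretic peptide, calcineurin and stress genes, 12 of 27 tested members rose and 7 fell (median log2 fold change 0.22). RCAN1, a feedback inhibitor that calcineurin induces, stood at 238, 184 and 183 CPM with doxorubicin, against 71, 51.1 and 71 CPM with vehicle (1.65 ± 0.16). MME, neprilysin, which degrades natriuretic peptides, averaged 8.46 ± 0.735 CPM with doxorubicin, against 32.2 ± 8.54 CPM with vehicle (-1.93 ± 0.19).

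In adrenergic and cAMP signalling, 7 of 33 tested members rose and 14 fell (median log2 fold change -0.12). ADCY6, a main adenylyl cyclase of heart muscle, stood at 267, 278 and 231 CPM with doxorubicin, against 571, 594 and 491 CPM with vehicle (-1.09 ± 0.11), and ADRA2C, a receptor that restrains noradrenaline release, averaged 4.8 ± 1.5 CPM with doxorubicin, against 18.6 ± 4.89 CPM with vehicle (-1.95 ± 0.25). CHRM2, the muscarinic receptor that opposes adenylyl cyclase, rose (0.71 ± 0.11). In the renin-angiotensin, endothelin and nitric oxide list, 5 of 25 tested members rose and 4 fell (median log2 fold change 0.13). Besides AGT, ACE, which converts angiotensin I, stood at 19.6, 20.7 and 29.4 CPM with doxorubicin, against 70.8, 82.3 and 54.6 CPM with vehicle (-1.58 ± 0.18). DDAH1, which clears an inhibitor of nitric oxide synthase, averaged 15.6 ± 5.39 CPM with doxorubicin, against 2.1 ± 0.333 CPM with vehicle (2.89 ± 0.29), and BDKRB1, the inducible bradykinin receptor, had 46 counts with doxorubicin and 5 with vehicle (ratio 9.22, 95% exact interval 3.68 to 29.7).

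Energy genes included several close relatives that moved in opposite directions, beside respiratory chain subunits of which more fell than rose. In ERR, PGC-1 and nuclear receptor genes, 8 of 35 tested members rose and 10 fell (median log2 fold change -0.06), with 5 rising without any 1 of the vehicle libraries. ESRRA stood at 82.9, 98.4 and 97.1 CPM with doxorubicin, against 202, 169 and 161 CPM with vehicle (log2 fold change -0.94 ± 0.12, adjusted p = 0.00026). Its coactivator genes split: per kilobase of deposited gene length, PPARGC1A averaged 7.63 CPM with doxorubicin against 4.35 CPM with vehicle, and PPARGC1B 3.28 CPM with doxorubicin against 8.13 CPM with vehicle. RXRA, the partner of many nuclear receptors, fell (-1.34 ± 0.12).

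Other pairs, also chosen after their values were seen, likewise moved in opposite directions. Per kilobase, the creatine kinase CKM averaged 1688 CPM with doxorubicin against 3433 CPM with vehicle, and the brain form CKB 26.9 CPM with doxorubicin against 10.1 CPM with vehicle. The phosphoglycerate mutase PGAM2 of muscle averaged 39.1 CPM with doxorubicin against 76.1 CPM with vehicle, and the widespread PGAM1 248 CPM with doxorubicin against 133 CPM with vehicle. The nucleotide carrier SLC25A6 averaged 119 CPM with doxorubicin against 311 CPM with vehicle, and SLC25A5 14.9 CPM with doxorubicin against 9.36 CPM with vehicle. Among mitofusins, MFN1 averaged 23.3 CPM with doxorubicin against 15.5 CPM with vehicle, and MFN2 48.3 CPM with doxorubicin against 68.0 CPM with vehicle.

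Among respiratory chain subunits encoded in the nucleus more fell than rose. In complex I, 3 of 37 tested members rose and 15 fell (median log2 fold change -0.23). The summed level of the list was 4898, 5246 and 6522 CPM with doxorubicin, against 6627, 6272 and 5773 CPM with vehicle, so the groups overlapped through doxorubicin replicate 3. NDUFA3 stood at 21.3, 32.3 and 27.3 CPM with doxorubicin, against 116, 105 and 103 CPM with vehicle, without overlap. In complexes II to V, 2 of 27 tested members rose and 9 fell (median log2 fold change -0.05), and 1 rose without vehicle replicate 3; UQCRB of complex III fell (-1.22 ± 0.11). Of the mitochondrially encoded genes, 3 of 13 tested members rose and 3 fell (23.1% each, near the shares over all genes tested, median log2 fold change 0.16). ATP8, which overlaps ATP6 and may share its reads, averaged 1.31 ± 0.711 CPM with doxorubicin, against 8.27 ± 2.11 CPM with vehicle. Assembly and coenzyme Q genes gave 5 rises and 10 falls among 37 (2 rises and 5 falls in the fit to 9 libraries, 2 rises without vehicle replicate 3 and 3 without vehicle replicate 1). ATPAF2, an assembly factor of ATP synthase, averaged 6.19 ± 0.826 CPM with doxorubicin, against 25.7 ± 1.16 CPM with vehicle (-2.05 ± 0.14), and COQ10B 61.6 ± 5.09 CPM with doxorubicin, against 27.3 ± 4.74 CPM with vehicle (1.17 ± 0.13).

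In the mitochondrial ribosome, 12 of 73 tested members rose and 22 fell (median log2 fold change -0.01). This excess of falls depended on the processing: 17 rose and 15 fell with an offset for genomic span (described at the end). Without doxorubicin replicate 1, 15 rose and 15 fell. MRPL12 averaged 32 ± 2.16 CPM with doxorubicin, against 71.2 ± 1.75 CPM with vehicle (-1.16 ± 0.09), and MRPL42 45 ± 7.38 CPM with doxorubicin, against 24 ± 2.29 CPM with vehicle (0.91 ± 0.13). In fusion, fission, import and mitophagy, 12 of 35 tested members rose and 12 fell (median log2 fold change 0.01); the fission receptor MIEF2 fell (-1.34 ± 0.12) and SSBP1, which coats single-stranded mitochondrial DNA, rose (1.07 ± 0.14). Of fatty acid uptake and oxidation genes, 9 of 38 tested members rose and 15 fell (median log2 fold change -0.10), with MLYCD, which removes the malonyl-CoA that blocks fatty acid entry, at 20.8 ± 0.454 CPM with doxorubicin, against 46.6 ± 1.91 CPM with vehicle (-1.16 ± 0.09).

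For the TCA cycle and pyruvate, 6 of 34 tested members rose and 7 fell (median log2 fold change -0.04), with 3 rising without vehicle replicate 3. Both shares, 17.6% and 20.6%, were below those over all genes tested. OGDH, an oxoglutarate dehydrogenase subunit, fell (-0.71 ± 0.10). In glucose and glycogen metabolism, 12 of 40 tested members rose and 10 fell (median log2 fold change -0.00094), with 7 rising without vehicle replicate 1 and 6 without vehicle replicate 3. In branched-chain and ketone catabolism, 4 of 24 tested members rose and 5 fell (median log2 fold change -0.09), led by BCAT2 (-1.06 ± 0.11), with 8 falling without doxorubicin replicate 3 and 2 rising without vehicle replicate 2 or 3. For creatine kinases, nucleotide exchange and channels, 8 of 23 tested members rose and 4 fell (median log2 fold change 0.10), with 4 rising without vehicle replicate 3 and 2 falling without vehicle replicate 2. In cholesterol and fatty acid synthesis, 7 of 33 tested members rose and 11 fell (median log2 fold change 0.03), with 4 rising without vehicle replicate 1 or 2; MVD and FADS2 fell (-1.27 ± 0.14 and -1.12 ± 0.14).

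Matrix genes moved both ways. Of collagens, 6 of 32 tested members rose and 12 fell (median log2 fold change -0.17). COL12A1, a fibril-associated collagen, stood at 122, 82 and 108 CPM with doxorubicin, against 23.8, 34.7 and 52.2 CPM with vehicle (1.49 ± 0.25), and COL6A2, of the beaded filament collagen VI, at 128, 86.2 and 98.8 CPM with doxorubicin, against 233, 366 and 375 CPM with vehicle (-1.64 ± 0.20). The main fibrillar collagens did not pass the test: COL1A1 stood at 479.5, 449 and 498 CPM with doxorubicin, against 234, 353 and 460.2 CPM with vehicle (adjusted p = 0.089) and COL3A1 at 1041, 821 and 1056 CPM with doxorubicin, against 924, 1373 and 1487 CPM with vehicle (adjusted p = 0.1), with overlapping groups in both. In collagen processing, 6 of 22 tested members rose and 5 fell (median log2 fold change 0.0027), with the crosslinking genes PLOD2 (1.09 ± 0.16) and LOXL1 (1.54 ± 0.28) higher; 3 fell without vehicle replicate 3.

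Matricellular and proteoglycan genes gave large changes both ways: 20 of 52 tested members rose and 18 fell (median log2 fold change -0.19). CTGF, a target of TGF-beta and YAP, averaged 269 ± 16.7 CPM with doxorubicin, against 70.2 ± 13.5 CPM with vehicle (1.94 ± 0.14). POSTN stood at 241, 138 and 221 CPM with doxorubicin, against 19.4, 23.1 and 30.9 CPM with vehicle, and FMOD, fibromodulin, averaged 101 ± 48.8 CPM with doxorubicin, against 15.3 ± 2.51 CPM with vehicle (2.72 ± 0.30). TNXB, tenascin X, which spaces collagen fibrils in resting tissue, averaged 55.8 ± 19.1 CPM with doxorubicin, against 274 ± 80 CPM with vehicle (-2.29 ± 0.26).

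Of metalloproteases and inhibitors, 12 of 39 tested members rose and 13 fell (median log2 fold change -0.09). MMP11 averaged 27.5 ± 8.18 CPM with doxorubicin, against 151 ± 29.9 CPM with vehicle (-2.46 ± 0.22), and the membrane protease MMP14 20.6 ± 1.61 CPM with doxorubicin, against 51.3 ± 4.48 CPM with vehicle (-1.32 ± 0.11), whereas SERPINE2, an inhibitor of serine proteases, averaged 167 ± 30.6 CPM with doxorubicin, against 38.8 ± 8.75 CPM with vehicle (2.11 ± 0.18). Among laminins and integrins, 10 of 42 tested members rose and 8 fell (median log2 fold change 0.04), with 5 falling without vehicle replicate 3. NID1, a linker of the basement membrane, averaged 133 ± 15.1 CPM with doxorubicin, against 326 ± 11.2 CPM with vehicle (-1.30 ± 0.11), and ITGB8, an integrin that activates latent TGF-beta, 54.4 ± 13.1 CPM with doxorubicin, against 19.9 ± 3.79 CPM with vehicle (1.45 ± 0.19).

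Within TGF-beta and BMP signalling, 16 of 52 tested members rose and 14 fell (median log2 fold change 0.10). SKIL, a repressor that SMAD signalling induces, stood at 72, 70.5 and 64 CPM with doxorubicin, against 31.4, 26.1 and 28.8 CPM with vehicle (1.26 ± 0.10). Latent TGF-beta binding proteins and ligands moved in opposite directions, in pairs chosen after their values were seen. Per kilobase, LTBP2 averaged 10.5 CPM with doxorubicin against 1.6 CPM with vehicle, and LTBP4 59.6 CPM with doxorubicin against 158 CPM with vehicle. TGFB2 averaged 3.42 CPM with doxorubicin against 1.61 CPM with vehicle per kilobase, and TGFB1 13.9 CPM with doxorubicin against 18.5 CPM with vehicle.

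Of the Wnt and Notch genes, 8 of 46 tested members rose and 15 fell (median log2 fold change -0.24); 5 rose without doxorubicin replicate 1, and 9 fell in the fit to 9 libraries. FRZB, a secreted Wnt antagonist, stood at 453, 471 and 391 CPM with doxorubicin, against 44.8, 28.9 and 92.8 CPM with vehicle (log2 fold change 2.98 ± 0.34, adjusted p = 0.00017). SFRP2, a relative, had 187 counts with doxorubicin and 2 with vehicle (ratio 93.7, 95% exact interval 25.6 to 780.0). NOTCH1 averaged 31.8 ± 2.01 CPM with doxorubicin, against 72.5 ± 4.3 CPM with vehicle (-1.19 ± 0.10).

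In neuregulin, FGF, IGF and insulin signalling, 8 of 37 tested members rose and 12 fell (median log2 fold change -0.04); 4 or 5 rose without vehicle replicate 1, vehicle replicate 3 or doxorubicin replicate 2. FGF2 averaged 52.3 ± 10.2 CPM with doxorubicin, against 16.6 ± 4.66 CPM with vehicle (1.65 ± 0.21). IRS2, an insulin receptor substrate, stood at 27, 31.3 and 25.9 CPM with doxorubicin, against 76, 92.5 and 73.9 CPM with vehicle (-1.53 ± 0.12), and IGFBP6 and the neuregulin receptor gene ERBB3 fell too (-2.26 ± 0.22 and -1.58 ± 0.21).

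**Figure D4:**
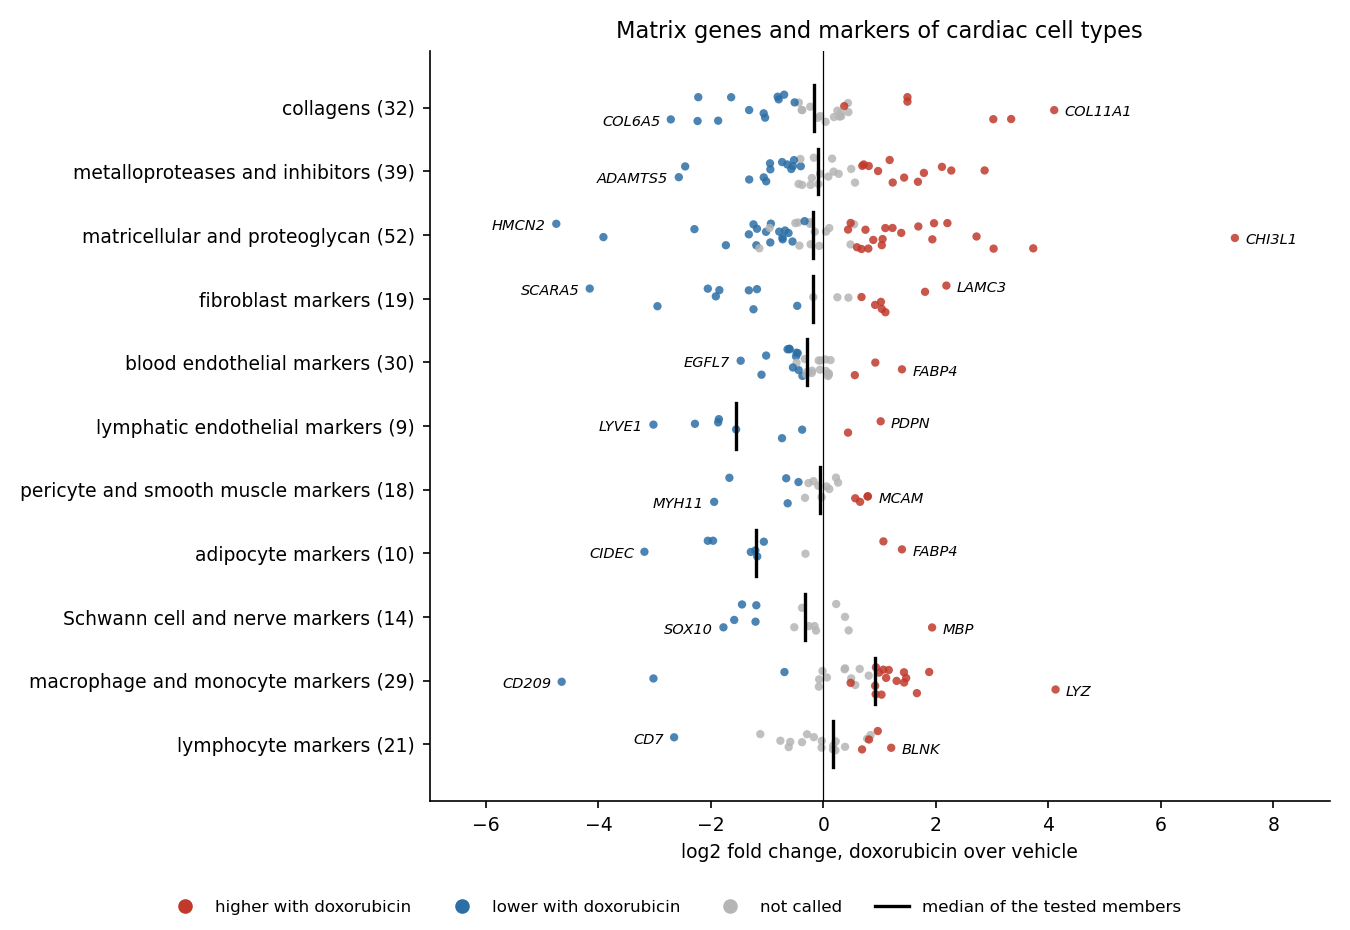
Fitted log2 fold change (horizontal axis) of each tested member of 11 lists of matrix genes and cell type markers, with the number tested in brackets and a bar at the median. Red points rose, blue points fell and grey points did not pass the test. Lymphatic and adipocyte markers lie mostly to the left, with medians of -1.55 and -1.19, and macrophage markers to the right, with a median of 0.92.

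Markers of the other cardiac cell types differed in direction. For macrophages and monocytes, 16 of 29 tested members rose and 3 fell (median log2 fold change 0.92), and the summed level was 732, 683 and 699.9 CPM with doxorubicin, against 365, 464 and 548 CPM with vehicle. FCGR3A, an Fc receptor, averaged 41.2 ± 2.72 CPM with doxorubicin, against 15.2 ± 3.81 CPM with vehicle (1.44 ± 0.16). Markers of resident macrophages were among the 3 that fell: LYVE1, shared with lymphatics, stood at 2.98, 1.09 and 1.38 CPM with doxorubicin, against 11.2, 13.7 and 19.8 CPM with vehicle (-3.02 ± 0.34), and CD209 at 0.787, 0 and 0 CPM with doxorubicin, against 2.51, 7.94 and 10.8 CPM with vehicle. FOLR2 was the third (-0.69 ± 0.18). MARCO stood at 0 in every library.

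For fibroblasts, 7 of 19 tested members rose and 9 fell (median log2 fold change -0.18), with 4 rising in the fit to 9 libraries. At least 2-fold changes numbered 5 rises and 8 falls, and the members named in this paragraph are falls. The summed level was 3192, 2053 and 2831 CPM with doxorubicin, against 2969, 5127 and 5068 CPM with vehicle, so the groups overlapped through vehicle replicate 1. CFD, also made by adipocytes, averaged 22.3 ± 3.66 CPM with doxorubicin, against 92.6 ± 16.6 CPM with vehicle (-2.05 ± 0.16), and GSN (gelsolin) 519.5 ± 139.6 CPM with doxorubicin, against 1954 ± 614 CPM with vehicle (-1.91 ± 0.25). The part of fibroblast number in the matrix genes above was not tested.

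For blood endothelium, 3 of 30 tested members rose and 12 fell (median log2 fold change -0.30). EGFL7 stood at 23.8, 28.7 and 27.3 CPM with doxorubicin, against 83.4, 68.1 and 69.5 CPM with vehicle (-1.47 ± 0.12), FLT1, a VEGF receptor, averaged 61.8 ± 3.48 CPM with doxorubicin, against 125 ± 21.5 CPM with vehicle (-1.02 ± 0.13), and FABP4 rose (1.40 ± 0.28). PECAM1 stood at 249, 278 and 332 CPM with doxorubicin, against 349, 228 and 318 CPM with vehicle (adjusted p = 0.78). For lymphatic endothelium, 2 of 9 tested members rose and 7 fell (median log2 fold change -1.55), the 2 that rose being PDPN (1.02 ± 0.12) and PROX1 (0.44 ± 0.09), which heart muscle also expresses. The summed level of the lymphatic list differed less, at 220, 224 and 222 CPM with doxorubicin, against 243, 255.5 and 255.7 CPM with vehicle. CCL21, a lymphatic chemokine, stood at 4.33, 5.56 and 10.4 CPM with doxorubicin, against 38.9, 30.8 and 28.7 CPM with vehicle (-2.28 ± 0.27), without overlap.

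In pericytes and smooth muscle, 4 of 18 tested members rose and 5 fell (median log2 fold change -0.06); MYH11, smooth muscle myosin, averaged 26.8 ± 7.6 CPM with doxorubicin, against 103 ± 57.4 CPM with vehicle (-1.94 ± 0.34). Among adipocyte markers, 2 of 10 tested members rose and 7 fell (median log2 fold change -1.19), all at least 2-fold, with 1 rising without vehicle replicate 1 or 2. PLIN4, a lipid droplet coat protein, stood at 67.4, 65.4 and 65.2 CPM with doxorubicin, against 159.7, 173 and 152 CPM with vehicle (-1.29 ± 0.09). The nuclear receptor gene PPARG rose (log2 fold change 1.07), a call lost without vehicle replicate 1 or 2 (adjusted p = 0.051 and 0.055). In Schwann cells and nerve, 5 of 14 fell (median log2 fold change -0.32) and MBP rose, a call lost when any 1 library other than doxorubicin replicate 1 was left out. The MBP call was also lost with DESeq2 (adjusted p = 0.11), limma-voom (0.31) and the fit to 9 libraries (0.12). A replicate block (adjusted p = 0.15) and an offset for genomic span (0.055) removed it too. SOX10 averaged 1.87 ± 1.02 CPM with doxorubicin, against 6.43 ± 1.21 CPM with vehicle (-1.78 ± 0.34). Of lymphocyte markers, 4 of 21 tested members rose and 1 fell (median log2 fold change 0.17), with 2 rising and 2 falling without vehicle replicate 2 or doxorubicin replicate 1. Atrial markers gave 5 rises and 4 falls among 15 (2 falls without vehicle replicate 2 and 1 in the fit to 9 libraries), and ventricular markers 5 rises and 7 falls among 14 (3 rises without vehicle replicate 2, vehicle replicate 3 or doxorubicin replicate 2).

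The direction of change varied with the length of a gene in the genome. When protein-coding genes were ordered by genomic span and cut into 5 groups of 2656, 16% of the shortest group (median span 5.0 kb) rose and 31.3% fell, against 26.8% and 15.3% of the longest (median span 158.9 kb). The median log2 fold change was -0.21 in the shortest group and 0.12 in the longest. Measured within each library, as the median deviation of the shortest group minus that of the longest, the value was -0.24, -0.233 and 0.0415 log2 units in doxorubicin replicates 1, 2 and 3, against 0.171, 0.126 and 0.169 in vehicle replicates 1, 2 and 3. Doxorubicin replicate 3 lay apart from its group and nearer to vehicle.

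**Figure D5:**
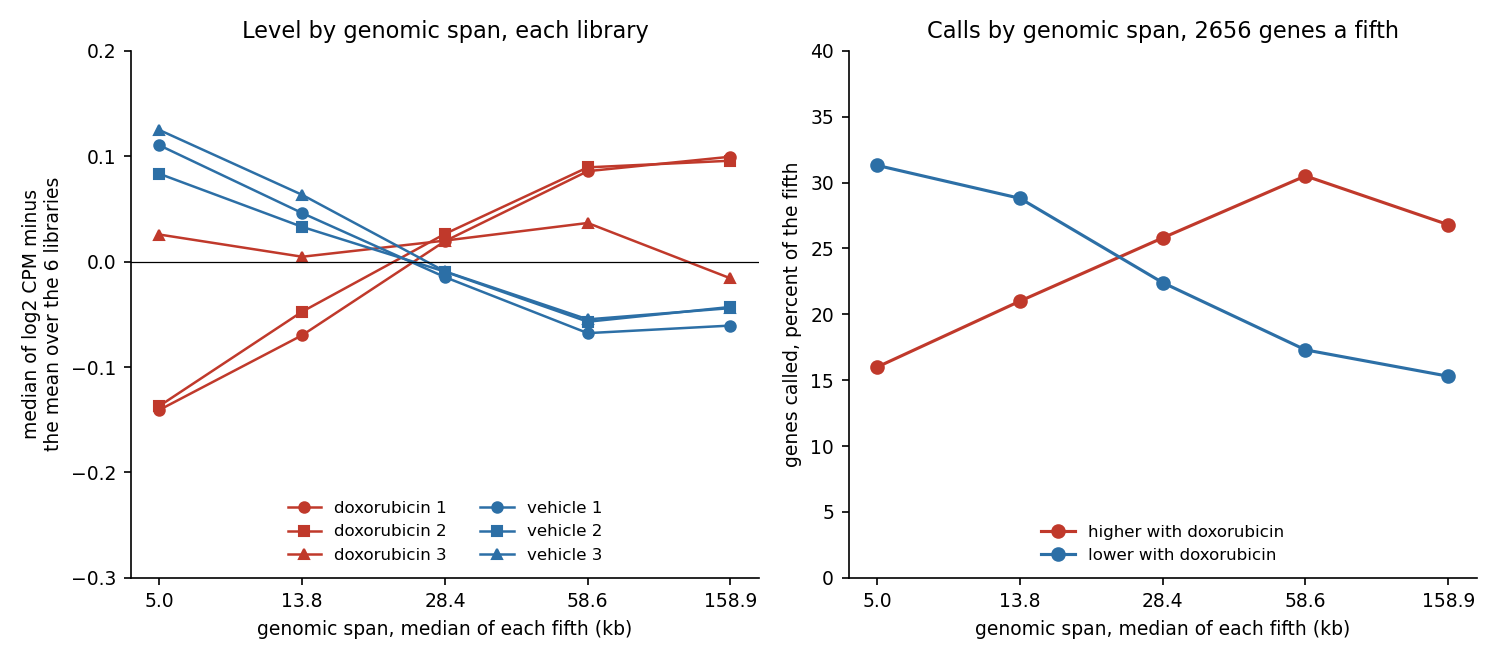
Left, the median deviation of log2 CPM from the mean of the 6 libraries (vertical axis) for 5 groups of protein-coding genes by genomic span (horizontal axis, median in kb), 1 line per library. Right, the percent of each group that rose or fell with doxorubicin. Doxorubicin replicates 1 and 2 slope upwards, vehicle libraries slope downwards and doxorubicin replicate 3 is nearly flat.

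The deposited gene length showed less of this: 22.9% of the shortest of 5 groups rose and 24.5% fell, against 23.1% and 19.7% of the longest. The shares also differed between chromosomes. On chromosome 12, 14.0% of 821 genes rose and 34.6% fell, and on chromosome 2 the shares were 17.8% and 33.0%. On chromosome 16, 34.4% of 288 genes rose and 15.3% fell. The median span of protein-coding genes was 18243 bases on chromosome 12, 17703.5 on chromosome 2 and 43678.5 on chromosome 16. The part of span in these differences was not tested. Chromosomes 6 and 7 have protein-coding genes of similar median span (20.7 and 21.1 kb); 14.8% rose and 28.5% fell on chromosome 6, and 22.0% rose and 20.9% fell on chromosome 7. Of 362 zinc finger genes of the C2H2 class, 11.9% rose and 21.8% fell, and of 808 long noncoding RNAs 11.4% rose and 14.6% fell. When the span trend was removed from each library, 3323 genes rose and 3115 fell. COX3 (log2 fold change -0.27, adjusted p = 0.055) and GAPDH (-0.21, 0.11) no longer passed the test. Of the 386 genes that the naming rule below selects, 13 lost their call and ND4L changed sign. The mitochondrially encoded genes called higher numbered 8 in place of 3, with log2 fold changes of 0.66 for ND2 and 0.77 for ND6 in place of 0.41 and 0.49.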

How the data were processed

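Per the labels' protocols, total RNA was extracted from heart with an RNeasy kit and libraries were made with a SMARTER mRNA-Seq kit. The authors deposited 1 table of raw counts per gene for all libraries; the sources used here name no aligner, counter or strand setting. Of its 30942 genes, 30335 matched identifier, symbol and start in RefSeq for Sscrofa11.1. Entries without a gene name held 2.41% to 2.59% of counts. Depth was 16291952 to 17344459 counts per library; count intervals cover counting error only.

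Genes were filtered with filterByExpr (minimum count 10), scaled with TMM factors and tested with the quasi-likelihood test of edgeR 4.0.16 (R 4.3.3) on the 6 libraries, at a Benjamini-Hochberg adjusted p of 0.05 over all genes tested. Of the fits, only this edgeR fit was tried on simulated data, which held far fewer changed genes than were called here and no span trend. Standard errors are the fitted log2 fold change over the square root of F. Alternatives were DESeq2 1.42.0, limma-voom 3.58.1, DESeq2 size factors in edgeR, no filter, all 9 libraries, a replicate block, no mitochondrially encoded genes, and each library left out; an offset for genomic span was added after seeing the data.

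The genes named were the 12 rises and 12 falls of largest fold among called genes without overlap at 20 CPM or more, the 8 gains and 8 losses largest in CPM, up to 4 called members of smallest p in each of 74 lists, and 10 fixed genes. Members completing a count of 5 or fewer were added. MYL4, SLN, TNXB, PECAM1, COL1A1 and COL3A1 lie outside this rule and were chosen after their values were seen. The gene pairs compared per kilobase were also chosen after their values were seen, for moving in opposite directions. The comparison and the lists were chosen with earlier results of these data known. Of 2435 list entries, 2361 matched a gene. No promoter sequence was analysed here, and a few genes that the rule selects are not reported here.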

Additional observations from a re-analysis of the deposited data

How the results depend on the processing

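Against 3349 rises and 3251 falls with the edgeR test on 6 libraries, every alternative that was run gave counts within 1.5 times: 3299 and 3286 with DESeq2's size factors, 3177 and 3199 with DESeq2's own test, 3329 and 3302 with limma-voom, 3351 and 3443 without the low-count filter, 2421 and 2526 in the fit to 9 libraries, 3328 and 3264 without mitochondrially encoded genes, and 3323 and 3115 with the span offset. Leaving out 1 library gave 2605 to 3273 rises and 2640 to 3211 falls. Of those genes, 71.9% of rises and 77.3% of falls remained with 9 libraries, the lowest shares of any alternative. The deviations of same-numbered libraries from their group means correlated at -0.24, -0.03 and -0.01. These values cannot settle whether same-numbered libraries were paired, since differently numbered libraries were not compared in this way. With the replicate block 2907 genes rose and 2839 fell, and TCA cycle rises numbered 3 in place of 6. ND4L had a log2 fold change of 0.019 with the span offset and -0.30 without it; the cause was not tested.

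Further list counts that moved by over 1.5 times were these. With the span offset there were 6 falls of topoisomerase and repair genes, 5 rises in complexes II to V, 6 falls of assembly factors, 5 rises of cytosolic ribosomal proteins, 2 falls each of lysosomal and antigen processing genes, 3 falls in collagen processing, 1 fall of mitochondrially encoded genes and 1 of tRNA synthetases. In the fit to 9 libraries there were 4 rises each of cholesterol and of growth factor genes, 4 falls of laminins and integrins, 3 rises each of replication genes and ventricular markers, 2 of NF-kappa-B genes and 1 fall of tRNA synthetases, and complexes II to V kept neither of 2 rises. With the replicate block there were 3 rises each of replication genes and ventricular markers, 1 fall each of tRNA synthetases and of the interferon receptor list, and 2 of nucleic acid sensors, as with DESeq2, limma-voom and no filter. Lists of mast cell, epicardial, skeletal muscle and red cell markers, each with at most 3 calls in a direction, were not described. Each group holds 3 libraries of unknown origin, and genes under about 10 counts a library were not tested.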

Other observations

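The library nearest to the other group differed by direction. Among the 987 genes that fell at least 2-fold, doxorubicin replicate 1 was the highest of its group for 399 (40.4%), and vehicle replicate 1 the lowest of its group for 430 (43.6%). Among the 839 that rose at least 2-fold, vehicle replicate 3 was the highest of its group for 384 (45.8%). By level, genes in the lowest of 5 groups of mean CPM rose at least 2-fold in 13.2% of cases and fell at least 2-fold in 12.2%, against 2.82% and 3.24% in the highest group.

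Within transcription factor families of the deposited annotation, 17.4% of 884 genes rose and 26.2% fell. Of 37 HMG-box genes 5.41% rose and 29.7% fell, and of 39 bZIP genes 33.3% rose and 25.6% fell. The summed level of the 18 pericyte and smooth muscle markers was 8314, 8392 and 7810 CPM with doxorubicin, against 5932, 5951 and 6324 CPM with vehicle, most of it the intermediate filament gene DES, which heart muscle also expresses, while MYH11 of the same list fell.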
